A study of Mus musculus with 6 samples.

Results

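The genes described here are 9 integrin and focal adhesion genes: Itgb1, Itga6, Itgb5, Ilk, Parva, Fermt2, Tln1, Vcl and Ptk2. They were taken by name, without regard to any measured value in the rule itself. The members were chosen, however, with earlier results of these data known. All 9 were among the 13024 genes of the count table, and all 9 passed the filter on low counts (10 or more in 3 or more libraries), which left 12879 genes for testing. RNA-Seq was performed on polyA RNA of mouse lenses at E14.5, in 3 pools labelled Gata3 CKO and 3 control pools. Each pool held 10 lenses from 5 embryos of a mixed C57BL/6 and FVB strain background. CKO embryos carry floxed Gata3 on both alleles (Gata3 f/f) together with Pax6-Cre/+, a Cre transgene driven by the ectoderm enhancer and a promoter of Pax6. The control genotype is Gata3 f/wt without Cre in the Results of the study, Gata3 f/f in its Methods, and wild type in the labels. Since Cre was present in the CKO embryos alone, an effect of Cre and an effect of the Gata3 deletion cannot be told apart. Libraries held 15157230 to 18811104 counts, and the unit of a level is CPM, a count divided by the library size after TMM scaling.

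The targeted gene was read first. Gata3 was at 12.8, 27.2 and 8.71 CPM in control replicates 1, 2 and 3, against 59.0, 54.1 and 46.5 CPM in replicates 1, 2 and 3 labelled CKO. All 3 libraries labelled CKO were thus above all 3 control libraries, the opposite of a loss of the transcript. The log2 fold change was 1.72 ± 0.40 (SE), with an adjusted p of 0.650 in edgeR's quasi-likelihood test with Benjamini-Hochberg adjustment and of 0.00163 in DESeq2. Counts over the whole gene do not tell transcripts with the deleted part from intact ones, so this level is no measure of the deletion. Counts by exon were not analysed here, and every direction below is that of the libraries labelled CKO against the control libraries.

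Integrins are receptors of an α and a β subunit that span the cell membrane and bind the extracellular matrix, in the lens chiefly the laminins and type IV collagen of the capsule. Inside the cell, talin and kindlin bind the short tail of the β subunit and switch the receptor on, and integrin-linked kinase, parvin, vinculin and focal adhesion kinase then couple it to actin and to signalling. α6β1 integrin is a laminin receptor of both lens epithelial and lens fibre cells.

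The tails on which this machinery assembles are shown as coding bases, since they are where the members Tln1 and Fermt2 meet the members Itgb1 and Itgb5. They were read from the GENCODE M21 transcripts of GRCm38, the assembly of mm10. They run from the codons of the conserved membrane-proximal residues to the last codon before the stop, without UTR. Capitals mark the codons of each motif in which asparagine is followed after 2 residues by tyrosine (NPxY or NxxY), the talin and kindlin binding sites of β integrins. Itgb1 codes for 41 such residues in transcript Itgb1-201 (2 coding exons on the forward strand within chr8:128726127-128732085), and Itgb5 for 51 in Itgb5-202 (2 coding exons on the forward strand within chr16:33947822-33948749).

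Itgb1 tail: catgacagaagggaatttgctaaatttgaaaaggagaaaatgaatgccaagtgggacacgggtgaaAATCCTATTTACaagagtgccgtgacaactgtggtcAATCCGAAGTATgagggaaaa
Itgb5 tail: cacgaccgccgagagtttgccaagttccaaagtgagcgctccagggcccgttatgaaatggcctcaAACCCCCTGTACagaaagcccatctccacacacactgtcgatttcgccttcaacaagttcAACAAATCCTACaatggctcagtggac

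Both tails shown hold 2 such motifs. The membrane-proximal motif begins at residue 23 of the stretch in both genes, while the distal one begins at residue 35 in Itgb1 and at residue 43 in Itgb5. Another annotated Itgb5 transcript, Itgb5-201, ends in a different tail of 68 residues with 0 such motifs, and the count of Itgb5 adds them together.

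Itga6 is annotated with a pair of alternative tails, α6A and α6B, each encoded by an exon of its own on the forward strand of chromosome 2. They are shown because the count of Itga6, the member on which the comparison turned, adds both together and cannot tell them apart. Capitals mark the codons of the GFFKR motif that begins the cytoplasmic tail of α integrins. The α6A tail has 34 residues (Itga6-201, chr2:71853537-71853638) and the α6B tail 52 residues (Itga6-202, chr2:71855857-71856012).

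Itga6 tail, α6A: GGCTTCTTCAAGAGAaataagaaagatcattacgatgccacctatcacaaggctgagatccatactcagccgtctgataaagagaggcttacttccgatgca
Itga6 tail, α6B: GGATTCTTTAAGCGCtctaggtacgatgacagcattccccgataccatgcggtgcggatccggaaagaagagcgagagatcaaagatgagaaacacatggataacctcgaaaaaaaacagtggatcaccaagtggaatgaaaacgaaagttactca

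Itga6 (chromosome 2, 71745616 to 71858416) encodes the α6 subunit, the laminin-binding partner of β1. Its level was 216, 289 and 201 CPM in control replicates 1, 2 and 3. Replicates 1, 2 and 3 labelled CKO were at 394, 358 and 345 CPM. The lowest library labelled CKO was above the highest control library, and the control library nearest to them was replicate 2. The group means were 235 ± 47.1 CPM in control and 366 ± 25.01 CPM in CKO (SD, n = 3 pools each). Its log2 fold change was 0.64 ± 0.15 (SE), a fold of 1.55 with a 95% interval of 1.22 to 1.98.

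The higher Itga6 level did not pass the threshold of the main test. In edgeR the unadjusted p was 0.00357, rank 69 of the 12879 genes tested, and the adjusted p was 0.638. DESeq2 gave an adjusted p of 0.0163, within a range of 0.0163 to 0.99999 over 14 alternative settings, and called 85 genes (0.661% of 12866), Itga6 the only one of the 9 members among them. edgeR called 0 genes (0% of 12879) at an adjusted p under 0.05 and 457 genes (3.55%) at an unadjusted p under 0.05, again with Itga6 as the only member. The exact two-sided permutation test of log2 CPM gave p = 0.10, the smallest value that 3 pools against 3 allow. Without control replicate 2 the log2 fold change was 0.82, the highest of the fits with 1 library left out, and without control replicate 3 it was 0.54, the lowest. In a bulk library, fewer cells of a type and less RNA per cell cannot be told apart, which holds for every gene below.

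Itgb1 (chromosome 8, 128685654 to 128733200), the β1 subunit shared by most matrix receptors, did not follow Itga6. Its levels were 478, 552 and 383 CPM in the control libraries and 468, 489 and 419 CPM in those labelled CKO, in the order of replicates 1, 2 and 3. All 3 values labelled CKO lay between the lowest and the highest control value. It differed by a log2 fold change of -0.037 ± 0.14 (SE), with a 95% interval of -0.38 to 0.31, which reaches past 0.29, the lower bound for Itga6. Its sign was positive with library size alone and without control replicate 2 or CKO replicate 3.

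Set against its partner within each library, Itga6 stood at 0.451, 0.524 and 0.526 of the Itgb1 CPM in control replicates 1, 2 and 3. The same ratio in the libraries labelled CKO was 0.840, 0.733 and 0.824. This ratio does not depend on the scaling of library size, and no library labelled CKO overlapped a control library. It was chosen after the values had been seen and is given as a description with no test. The ratio of Itga6 to Ilk moved likewise, from 1.82 to 1.95 in the control libraries to 2.57 to 3.21 in the libraries labelled CKO. So did the ratio of Itga6 to every other member and to Itgav. All these ratios share the level of Itga6 and are no separate support. The level of Ilk is itself uncertain, for a reason given below.

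Itgb5 (chromosome 16, 33829665 to 33949338) encodes the β5 subunit, which pairs with αv in a vitronectin receptor. Its control values of 90.9, 135 and 74.3 CPM spread more widely than those of any other member, with an SD of 31.5% of the mean. In the libraries labelled CKO it was at 82.0, 93.1 and 78.3 CPM. These lay inside the control range, and control replicate 2 stood above all other libraries. The log2 fold change was -0.25 ± 0.22 (SE; 95% interval -0.77 to 0.28) and was 0.043 without that control library.

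**Figure D1:**
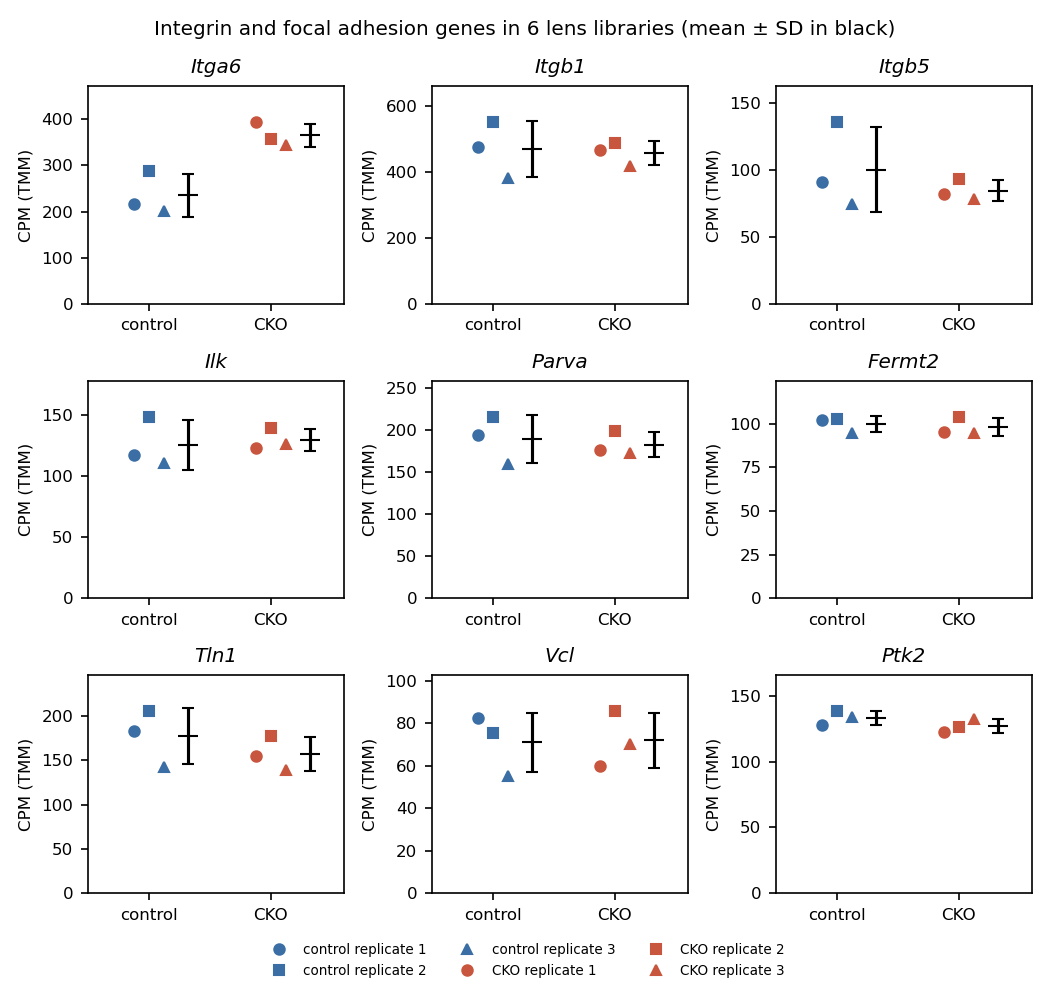
CPM of the 9 genes, 1 panel a gene, in 3 control libraries (blue) and 3 libraries labelled CKO (red), with circles, squares and triangles for replicates 1, 2 and 3 and the mean ± SD of each group in black, all axes from 0. Itga6 is the only panel in which the groups are apart, at 201 to 289 CPM in control and 345 to 394 CPM in CKO.

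Levels can be set between genes only per length of exon. As CPM per kilobase of exon, Itgb1 was at 123 ± 22.2 in control and 120 ± 9.44 in CKO, and Itga6 at 53.9 ± 10.8 and 83.9 ± 5.73 (SD, n = 3 each). Itgb5 was lower, at 29.5 ± 9.31 in control and 24.9 ± 2.28 in CKO. Among 17 other α subunits listed, 10 were in the table, and the one with the highest level per kilobase was Itgav, the αv partner of Itgb5, at 17.7 in control and 16.3 in CKO. Itga6 was thus the α subunit with the highest level per kilobase of those in the table, in every library of either group. Of 6 other β subunits listed, 1 was in the table, Itgb8, at 3.00 and 3.50 CPM per kilobase. Itgb2, Itgb3, Itgb4, Itgb6 and Itgb7 were not analysed here, so the β4 partner with which α6 forms hemidesmosomes has no value.

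**Figure D2:**
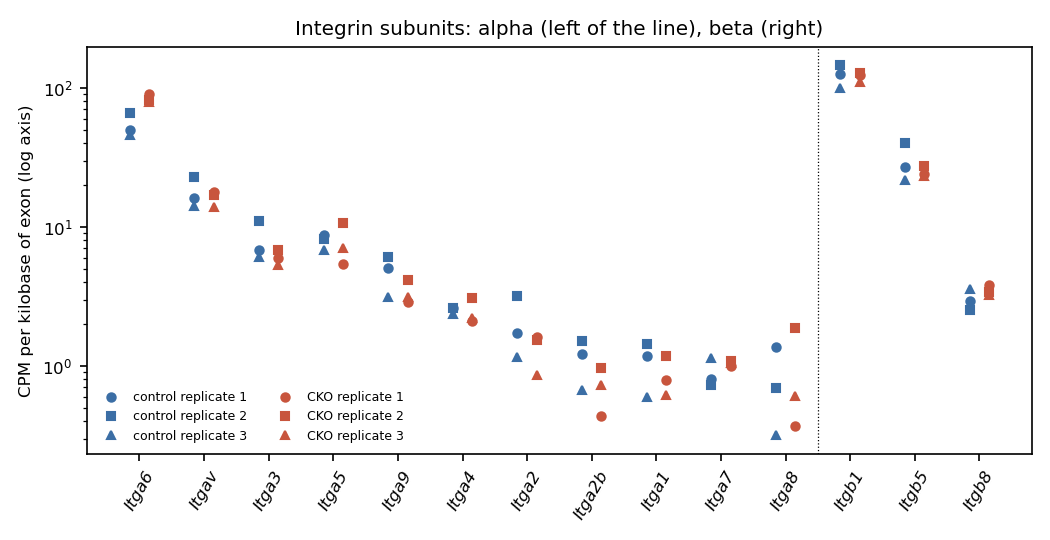
CPM per kilobase of exon (log axis) of 11 α subunits, left of the dotted line, and 3 β subunits, right of it, in each control library (blue) and each library labelled CKO (red). Itga6 and Itgb1 stand above the other subunits of their kind, and Itga6 alone has all 3 red points above all 3 blue ones.

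Of the other α subunits, 2 were higher and 8 lower in CKO by the fitted fold change, the median on the log2 scale was -0.22, and 0 had an unadjusted p under 0.05 in either direction. They were 5 and 5 with library size alone (median -0.089, with 78.3% of all genes higher) or without control replicate 2 (-0.017). Leaving out control replicate 3 gave 1 higher and 9 lower (-0.41). An unadjusted p under 0.05 was then reached by 3 of the list, beside 9.59% of all genes tested. Leaving out CKO replicate 2 also gave 1 higher and 9 lower, with a median of -0.55. Itgav was at 125 ± 32.6 CPM in control and 115 ± 14.9 CPM in CKO, a log2 fold change of -0.12 ± 0.20 (SE). Itgb8 had a log2 fold change of 0.22 ± 0.15 (SE) and an unadjusted p of 0.173.

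Ilk (chromosome 7, 105736592 to 105742925) encodes integrin-linked kinase, a scaffold that binds parvin and acts at the β1 tail. Its levels were 117, 148 and 110 CPM in the control libraries and 123, 139 and 126 CPM in those labelled CKO. The values labelled CKO fell between control replicates 1 and 2. Its log2 fold change was 0.047 ± 0.12 (SE), and it was 0.20 with an unadjusted p of 0.0449 without control replicate 2, and below 0 without control replicate 3 or CKO replicate 2. Of 1877 exon bases of Ilk, 1533 lie opposite to exons of Taf10 and 319 opposite to exons of Rrp8. The strand setting of the counting is not given in the sources used here, so the level of Ilk is uncertain.

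Parva (chromosome 7, 112427505 to 112591692) encodes α-parvin, which links integrin-linked kinase to actin. Parva was at 195, 216 and 160 CPM in control and 177, 200 and 173 CPM in the libraries labelled CKO, with replicate 2 the highest of each group. For Parva the log2 fold change was -0.055 ± 0.12 (SE), and its sign was positive with library size alone and without control replicate 2. By library, Parva ran closest to Itgb1 of all pairs of members, with a root mean square difference of 0.050 in log2 CPM after the mean of each gene over the 6 libraries was subtracted.

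Talin and kindlin activate integrins from inside the cell, through the motifs shown in capitals above. Fermt2 (chromosome 14, 45458795 to 45530118, reverse strand) encodes kindlin-2. Its levels kept within 94.6 to 104 CPM in all 6 libraries, an SD of 4.53% of the mean in control and 5.34% in CKO. Between groups Fermt2 differed by a log2 fold change of -0.026 ± 0.074 (SE), with a 95% interval of -0.20 to 0.15. With library size alone, and without control replicate 1 or 2, the sign was positive.

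Tln1 (chromosome 4, 43531519 to 43562691, reverse strand) encodes talin-1, which also carries the pull of actin to the receptor. It was at 183, 206 and 143 CPM in control and 155, 177 and 140 CPM in the libraries labelled CKO. The groups overlapped, with control replicate 3 next to the lowest library, CKO replicate 3. Its log2 fold change was -0.17 ± 0.15 (SE; unadjusted p 0.293), negative in all 14 alternative settings. Without control replicate 3 it was -0.31 with an unadjusted p of 0.0362.

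Vcl (chromosome 14, 20929398 to 21033676) encodes vinculin, which binds talin once it is stretched and adds further links to actin. Its levels were 82.4, 75.3 and 55.4 CPM in control and 59.97, 85.7 and 70.1 CPM in the libraries labelled CKO. The ranges of both groups overlapped almost fully, and the log2 fold change was 0.020 ± 0.19 (SE; 95% interval -0.43 to 0.47). Its sign was negative without control replicate 3 or CKO replicate 2. Of 5267 exon bases of Vcl, 2090 lie opposite to exons of Ap3m1, so its level is uncertain for the same reason as that of Ilk.

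Ptk2 (chromosome 15, 73205102 to 73423280, reverse strand) encodes focal adhesion kinase, the tyrosine kinase that signals from clustered integrins. It was at 128, 138 and 134 CPM in control and 122, 127 and 133 CPM in the libraries labelled CKO. The spread was the smallest of the 9 members, with an SD of 4.05% of the mean in control and 4.01% in CKO. Control replicate 1 lay below CKO replicate 3, the only overlap of the groups. Its log2 fold change was -0.068 ± 0.067 (SE), with a 95% interval of -0.23 to 0.092 that excludes a change of the size seen for Itga6.

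**Figure D3:**
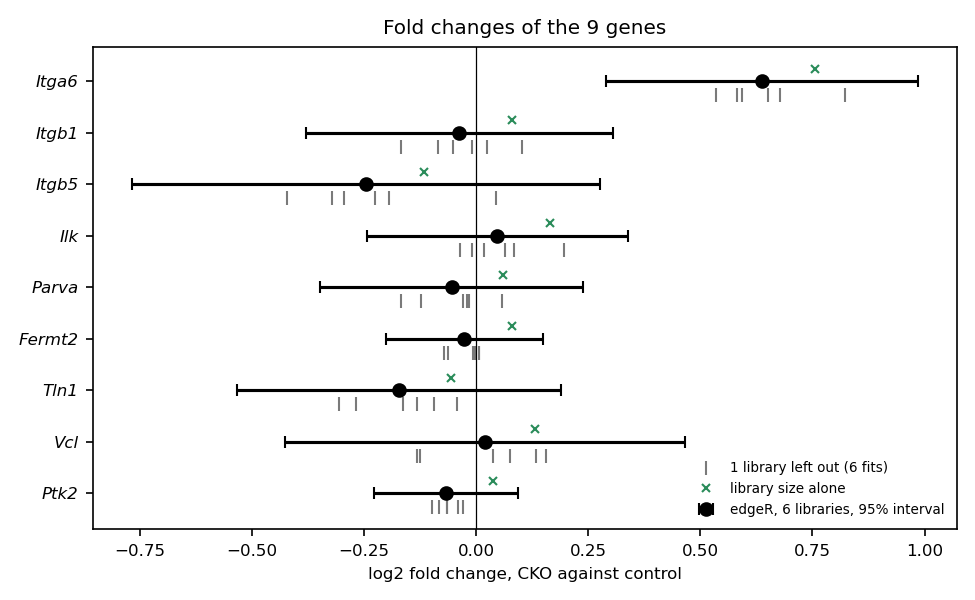
Log2 fold change of CKO against control for the 9 genes, with the edgeR estimate and its unadjusted 95% interval (black), the fits with 1 library left out (grey ticks) and the fit with library size alone (green crosses). The estimates of 8 genes lie between -0.25 and 0.047, and that of Itga6 at 0.64.

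Counted over the 9 members, 3 were higher and 6 lower in CKO by the fitted fold change, with a median log2 fold change of -0.037 beside 0.0019 for all genes tested. The count of members with a positive sign was 7 with library size alone (beside 78.3% of all genes) and 7 without control replicate 2 (50.6%). It was 1 without control replicate 3 (51.5% of all genes) or without CKO replicate 2 (48.8%). In 1 member, Itga6, all 3 libraries labelled CKO were above all 3 control libraries, as in 473 genes tested (3.67%), and in 0 members were they all below, as in 604 genes (4.69%). With 1 library left out such separation was more frequent over all genes. Without control replicate 2 Ilk also had all values labelled CKO above the control values, as in 11.1% of genes tested, and without control replicate 3 Tln1 had all of them below, as in 14.0%. Ptk2 had all of them below without control replicate 1 (7.21% of genes) or without CKO replicate 3 (7.67%). No interval of the 8 other members reached 0.64, the highest bound being 0.47 for Vcl. The SD was larger in control than in CKO for 8 of the 9 members, all but Fermt2. The share of all genes with a larger SD in control was not analysed here. Over all genes tested, control replicate 2 was the highest library in 31.6% and the lowest in 31.6%. The larger control SD is therefore not read as a trait of the members.

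The order of levels per kilobase was much the same in both groups, apart from Itga6. In control it ran from Itgb1 through Ilk, Itga6, Parva, Fermt2, Itgb5, Ptk2 and Tln1 to Vcl. Ilk at 58.8 to 79.0 and Itga6 at 46.1 to 66.3 CPM per kilobase overlapped in control, while in CKO Itga6 at 79.2 to 90.2 lay above Ilk at 65.3 to 74.2. Itgb5 at 21.9 to 39.9 CPM per kilobase was not separated from Fermt2 or from Ptk2 in control, while Fermt2 at 28.7 to 31.2 lay above Ptk2 at 24.7 to 26.8. Vcl was the lowest member in both groups, at 13.5 ± 2.66 in control and 13.7 ± 2.46 in CKO (SD, n = 3 each).

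Most of the 8 members other than Itga6, but not all, ran alike over the libraries. In 6 of these 8 control replicate 2 was the highest of all libraries, as in 31.6% of genes tested, with Fermt2 and Vcl as the exceptions. In 6 of 8 control replicate 3 was the lowest, as in 21.3% of genes tested, with Tln1 and Ptk2 as the exceptions. Among the libraries labelled CKO, replicate 2 was the highest for 7 of 8, all but Ptk2, as in 32.2% of genes tested. Itgb5 and Ptk2 were the farthest apart of these members, with a root mean square difference of 0.26 in centred log2 CPM. Their summed level was 1376, 1574 and 1154 CPM in the control libraries and 1282, 1414 and 1233 CPM in those labelled CKO, in the same order of replicates. The mean centred log2 CPM of the 8 was 0.23 in control replicate 2 and -0.19 in control replicate 3, a wider gap than any between libraries labelled CKO. Itga6 moved with them in control, where it was also highest in replicate 2 and lowest in replicate 3, but in CKO it was highest in replicate 1.

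Markers of cell types varied over the same libraries. The lens fibre list, of which 10 of 11 genes were in the table, summed to 10759, 22458 and 7611 CPM in the control libraries and to 10552, 8132 and 7086 CPM in those labelled CKO, so that control replicate 2 stood highest here too. All 10 fibre genes were lower in CKO, 7 of them with an unadjusted p under 0.05, and their median log2 fold change was -1.35. The size of this difference rested in part on control replicate 2, without which 9 of 10 were lower and the median was -0.84, against -1.61 without control replicate 3. The gene named for a list is the one with the highest CPM per kilobase of exon in the mean of both groups, here Mip, the lens water channel, which led in every library. Its log2 fold change was -0.85, and -0.28 without control replicate 2. The lens epithelium list summed to 1307, 1516 and 1071 CPM in control and 1115, 1190 and 1110 CPM in CKO. Pax6 alone held 647, 598 and 662 CPM of these sums in control and 619, 586 and 647 CPM in CKO. The sums thus rest in large part on Pax6, whose log2 fold change was -0.043, and are no measure of the other genes listed. All 5 genes of the list were lower by the fitted fold change, 0 with an unadjusted p under 0.05, with a median log2 fold change of -0.35. That sign did not hold without control replicate 2, where 3 of 5 were higher (median 0.095), while without control replicate 3 the median was -0.56 and 3 genes had an unadjusted p under 0.05. Foxe3, a transcription factor of the lens epithelium, led the list by the mean of both groups, chiefly through control replicate 2 at 221 CPM per kilobase, and Pax6 or Gja1 led in 4 libraries. Dnase2b, a nuclease of fibre cells, had the lowest log2 fold change of the fibre genes at -4.64, and was named after its values were seen.

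Genes of tissue around the lens were present in every library, and some of these lists had the same sign as Itga6. All 11 mesenchyme genes tested were higher in CKO by the fitted fold change (median log2 fold change 0.61), as were all 10 retina genes (0.13), 4 of 5 pigment cell genes (0.061) and 4 of 6 surface ectoderm genes (0.37). Vessel genes were higher in 1 of 8 (-0.33), mural genes in 1 of 5 (-0.085), macrophage genes in 0 of 8 (-0.51), platelet genes in 1 of 3 (-0.66) and blood genes in 0 of 3 tested (-0.98). The signs of several lists turned with 1 library left out. Mesenchyme genes were higher in 0 of 11 without CKO replicate 2 (-1.12) and in all 11 without control replicate 1 (2.02), and retina genes in 1 of 10 without control replicate 2 (-0.14). Surface ectoderm genes were higher in 0 of 6 without CKO replicate 2 (-0.26), and pigment cell genes in 0 of 5 without control replicate 2 (-0.27), control replicate 3 (-0.32) or CKO replicate 2 (-1.11). Mural genes were higher in 3 of 5 without control replicate 1 (0.16), CKO replicate 1 (0.20) or CKO replicate 3 (0.0047). The medians of the vessel, macrophage, platelet and blood lists stayed below 0 throughout. The part of cell composition in the level of Itga6 was not tested. The mesenchyme list (11 of 12 genes in the table, led by Col1a2, or by Col3a1 in 3 libraries) summed to 2534, 613 and 339 CPM in the control libraries and to 334, 4556 and 631 CPM in those labelled CKO. Control replicate 1 and CKO replicate 2 therefore held far more of these transcripts than the rest, and the pigment cell list (5 of 5, led by Pmel) was high in the same libraries, at 309 and 313 CPM against 53.3 to 71.6 CPM in the others. CKO replicate 2 was also the highest CKO library for 7 of the 8 members, and their part in those values was not tested. With both libraries left out, a choice made after seeing the data, the log2 fold change of Itga6 was 0.60 with an unadjusted p of 0.0416, 173 genes had an unadjusted p under 0.05, and 2 members were higher in CKO, Itga6 and Vcl. In that fit of 2 against 2 libraries Ptk2 had both values labelled CKO below the control values, as in 12.0% of genes tested.

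The retina list (10 of 10, led by Fgf15) summed to 1536 to 3264 CPM in control and 2265 to 3047 CPM in CKO, lowest in control replicate 2. Vessel genes (8 of 8, led by Kdr in all libraries but control replicate 2) were at 273 to 352 CPM in control and 249 to 312 CPM in CKO, mural genes (5 of 5, led by Rgs5 in control and by Acta2 in CKO) at 81.2 to 164 and 86.0 to 160 CPM, and macrophage genes (8 of 8, led by C1qb, or by C1qa in control replicates 1 and 2) at 79.5 to 150 and 72.5 to 96.0 CPM. Surface ectoderm genes (6 of 6, led by Krt5) were at 35.5 to 93.5 CPM in control and 51.2 to 150.2 CPM in CKO. Platelet genes (3 of 4, led by Pf4, with the α subunit gene Itga2b among them) were at 11.3 to 15.9 and 10.1 to 12.3 CPM. Of the blood list, 6 of 7 genes were in the table, 3 of them (Hbb-bs, Hbb-bt and Hba-a2) at 0 in every library, and the sum, led by Hbb-y, was 346 to 1267 CPM in control and 279 to 409 CPM in CKO. In the main edgeR fit of all 6 libraries, apart from C1qa of the macrophage list, no gene of these 7 lists or of the lens epithelium list had an unadjusted p under 0.05. Leaving out control replicate 3 raised these counts to 7 of 8 macrophage, 4 of 8 vessel, 3 of 3 platelet and 2 of 3 blood genes. It gave 1 retina, 1 mural and 0 surface ectoderm genes, beside 9.59% of all genes tested. C1qa, Acta2, Col3a1, Pax6 and Gja1 were named after their values were seen.

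**Figure D4:**
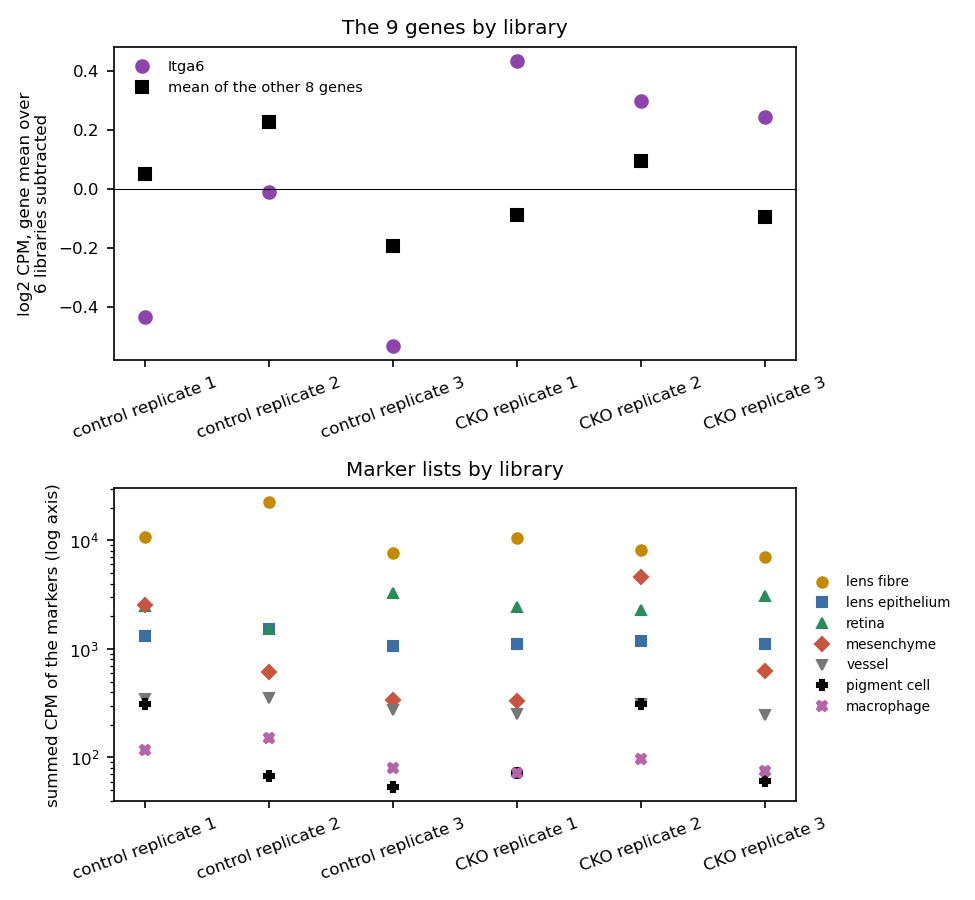
Upper panel, log2 CPM of Itga6 and the mean of the other 8 genes in each library after the mean of each gene over 6 libraries was subtracted. Lower panel, summed CPM (log axis) of 7 marker lists in the same libraries, in which control replicate 2 leads the lens fibre list at 22458 CPM and CKO replicate 2 the mesenchyme list at 4556 CPM.

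The rest of the adhesion machinery was read from 5 lists of 92 genes, 71 of which were in the table. Of these 71, 28 were higher and 43 lower in CKO (median log2 fold change -0.056), beside 50.6% higher of all genes tested. The balance turned with library size alone (49 higher and 22 lower, beside 78.3% of all genes higher), without control replicate 2 (39 and 32) and without CKO replicate 3 (36 and 35), and it was widest without CKO replicate 2 (16 and 55). In the fit of all libraries 1 was higher with an unadjusted p under 0.05 beside 1.30% of all genes tested (168), and 0 were lower beside 2.24% (289). None passed an adjusted p under 0.05 in edgeR or in DESeq2. In either direction the count of 1 of 71 stood beside 3.55% of all genes. Without control replicate 3 it was 12 (1 higher and 11 lower) beside 9.59% of all genes, and without control replicate 2 it was 4, all higher, beside 6.27%. It was 4, all lower, without CKO replicate 2 (3.00% of all genes) and 4, of which 3 lower, with DESeq2 (3.94%), and 2 without control replicate 1 (2.44%) or CKO replicate 1 (2.51%).

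The gene counted was Cd81, a tetraspanin of the web in which α6 integrins sit at the membrane. Cd81 was at 123, 120 and 107 CPM in control and 132, 151 and 135 CPM in the libraries labelled CKO. No library labelled CKO overlapped a control library, as in 3.67% of genes tested in that direction. The log2 fold change was 0.26 ± 0.087 (SE), with an unadjusted p of 0.0225 and an adjusted p of 0.9998 in edgeR. Its unadjusted p was not under 0.05 without CKO replicate 2 or without both mesenchyme-rich libraries. Cd81 was also the most abundant per kilobase of the 6 hemidesmosome and tetraspanin partners of α6 integrin, all in the table, of which 4 were higher and 2 lower, against 1 higher and 5 lower without control replicate 3.

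Adapters, kinases and actin linkers of focal adhesions numbered 36 of 42 in the table, 15 higher and 21 lower in CKO (median log2 fold change -0.050). With library size alone 29 were higher (0.059), beside 78.3% of all genes. Leaving out CKO replicate 2 gave 8 higher and 28 lower (-0.088), and leaving out control replicate 3 gave 12 and 24 (-0.059). The most abundant per kilobase was Flna, the actin crosslinker filamin A, at 734 ± 59.3 CPM in control and 715 ± 73.9 CPM in CKO, a log2 fold change of -0.038 ± 0.11 (SE). None of this list had an unadjusted p under 0.05 in the main edgeR fit. Without control replicate 3 it was 3, beside 9.59% of all genes. Rap1b, a small GTPase that recruits talin, was the only one whose groups did not overlap, with a log2 fold change of 0.13 ± 0.065 (SE). It was singled out after its values were seen. Over all genes tested, 3.67% had all libraries labelled CKO above all control libraries.

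Integrin ligands of the extracellular matrix numbered 18 of 21 in the table, 6 higher and 12 lower in CKO (median log2 fold change -0.16). The balance turned to 10 higher and 8 lower without control replicate 2 (0.051) or CKO replicate 3 (0.024). Leaving out CKO replicate 2 gave 4 higher and 14 lower (-0.58), and leaving out control replicate 3 gave 3 and 15 (-0.46). In these fits 3 and 4 ligands had an unadjusted p under 0.05, beside 3.00% and 9.59% of all genes. The most abundant per kilobase by the mean of both groups was Nid1, which bridges laminin and type IV collagen in basement membranes, at 1279 ± 666 CPM in control and 1036 ± 185 CPM in CKO, a log2 fold change of -0.30 ± 0.37 (SE). Col4a2, a chain of type IV collagen, was the only ligand with groups that did not overlap. It was lower in CKO at a log2 fold change of -0.70 ± 0.31 (SE, unadjusted p 0.0595 in edgeR), and was singled out after its values were seen. All libraries labelled CKO lay below all control libraries in 4.69% of genes tested. As a sum the ligands were at 4795, 7849 and 3567 CPM in the control libraries and 4375, 4828 and 3513 CPM in those labelled CKO. Control replicate 2 was the highest and replicate 3 the lowest control library, the same order as for the summed members. Lama1 and Lamc1, chains of the laminins that α6β1 binds, had log2 fold changes of 0.016 ± 0.25 and 0.16 ± 0.25 (SE), and were likewise named after their values were seen. Both are among the 6 higher of the 18 ligands, and they do not stand for the other laminin chains of the list.

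**Figure D5:**
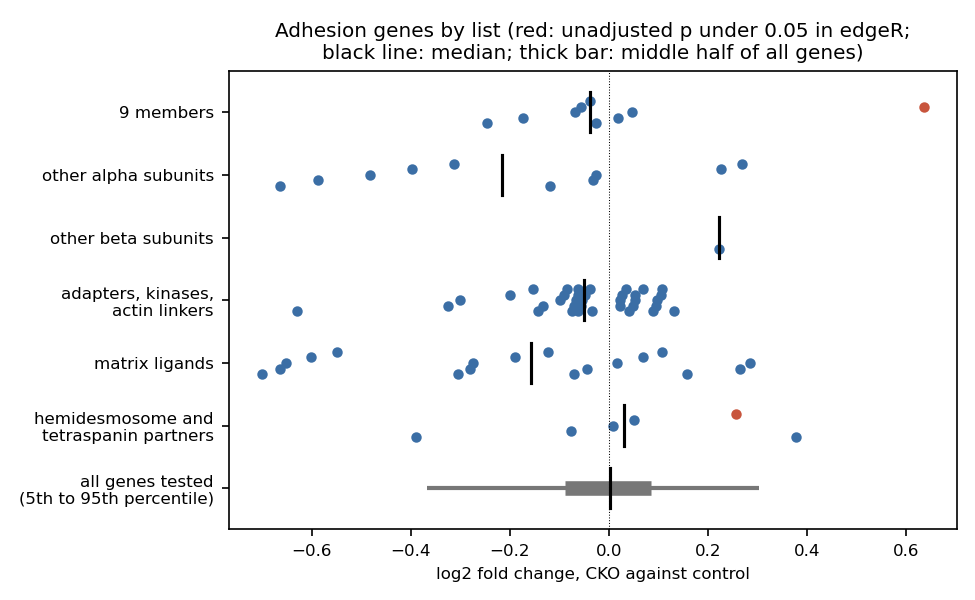
Log2 fold change of CKO against control for each gene of the 9 members and of 5 lists of other adhesion genes, with the median of each list as a black line and genes with an unadjusted p under 0.05 in red. The grey bar gives all genes tested, thin from the 5th percentile at -0.37 to the 95th at 0.30. Of the adhesion genes drawn, Itga6 at 0.64 is the highest.

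The genes whose centred log2 CPM over the 6 libraries lay nearest to that of Itga6 were Clstn2, Stx3, Lingo3, Pgpep1 and Rn45s, at root mean square differences of 0.069 to 0.10. Clstn2, which encodes a calsyntenin, was at 15.96 ± 3.88 CPM in control and 24.9 ± 2.74 CPM in CKO (SD, n = 3 each). Rn45s, a ribosomal RNA precursor, was at 1502 ± 186 and 2178 ± 303 CPM. The mean profile of the other 8 members was nearest to those of Cflar, Srprb, Mxd4, Snx9 and Gas5, at differences of 0.019 to 0.030, with log2 fold changes from -0.068 for Mxd4 to -0.020 for Snx9. No gene of the adhesion lists was among these 10 genes.

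Promoter windows of 250 bases before to 50 bases after the start were found in RefSeq (GRCm38.p6) for 6 of the 9 members, Itgb1, Itgb5, Ilk, Fermt2, Tln1 and Vcl, 7 windows in all. Itga6, Parva and Ptk2 had no window and were not searched. The GATA motif was searched as GATA preceded by A or T and followed by A or G, on both strands. It was in 0 of these 7 windows and in 9778 of all 32851 windows (29.8%). No match says only that these letters are not in these windows.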

How the data were processed

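Per the labels, polyA RNA of 6 lens pools was sequenced from stranded libraries. The authors' processing notes name Trim Galore, TopHat2 2.0.13, HTSeq 0.6.1, Cuffdiff 2.2.1, DESeq2 and the mm10 build. The authors deposited raw counts of fragments per gene, without normalization, for 13024 genes, the number that their methods give as past a mean FPKM threshold in at least 1 group. Genes below 10 counts in more than 3 of the 6 libraries were left out, and the rest were fitted in edgeR 4.0.16 (TMM, robust glmQLFit, glmQLFTest, Benjamini-Hochberg adjustment over all genes tested) in R 4.3.3. Log2 CPM used a prior count of 1, and exact two-sided permutation tests an offset of 0.5. Alternatives were DESeq2 1.42.0, limma 3.58.1 (voom), RLE factors, library size alone, crystallins left out of library sizes, no filter, a replicate block and each library left out in turn. The fit without both mesenchyme-rich libraries was added after seeing the data. The edgeR fit was tested on counts simulated from the means, library sizes and dispersions of these libraries, with known fold changes. Replicates are numbered as in the sample titles, while the CKO columns and descriptions carry the numbers 2, 3 and 4. Exon lengths are unions of GENCODE M21 exons. Named genes were the members, Gata3, and per adhesion list the genes with an unadjusted p under 0.05 and the most abundant gene. For each marker list the rule named the most abundant gene alone. Abundance was CPM per kilobase in the mean of both groups. The 5 nearest profiles each to Itga6 and to the mean of the other 8 were also named. The members and lists were chosen with earlier results of these data known.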

Additional observations from a re-analysis of the deposited data

How the results depend on the processing

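The log2 fold change of Itga6 was positive in all 14 alternative settings, at 0.54 to 0.82, with an unadjusted p of 2.61e-05 to 0.0416. Its adjusted p was under 0.05 in DESeq2 alone (0.0163, log2 fold change 0.64). Genes with an adjusted p under 0.05 numbered 0 in edgeR, 85 in DESeq2, 1 with library size alone and 0 to 1 with 1 library left out. Genes with an unadjusted p under 0.05 numbered 457, 270 to 1234 with 1 library left out (270 without CKO replicate 3, 806 without control replicate 2, 1234 without control replicate 3) and 173 without both mesenchyme-rich libraries.

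Library size alone moved the median log2 fold change of all genes from 0.0019 to 0.10. Members higher in CKO then numbered 7 in place of 3, and the signs of Itgb1 (0.080), Parva (0.060), Fermt2 (0.080) and Ptk2 (0.038) turned, all still below that median. With 1 library left out, members higher in CKO numbered 1 to 7, members with an unadjusted p under 0.05 1 to 2, and members whose groups do not overlap 1 to 2. Over the same fits the log2 fold change was -0.17 to 0.10 for Itgb1, -0.42 to 0.043 for Itgb5, -0.037 to 0.20 for Ilk, -0.17 to 0.058 for Parva, -0.071 to 0.0072 for Fermt2 and -0.13 to 0.16 for Vcl. Without both mesenchyme-rich libraries Ilk was at -0.044, and the groups of 2 members (Itga6, higher, and Ptk2, lower) did not overlap, as in 9.57% and 12.0% of all genes in that direction. The cause of these turns was not tested.

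Other adhesion genes with an unadjusted p under 0.05 numbered 1, 4 in DESeq2, 2 with library size alone, 1 to 12 with 1 library left out and 2 without both mesenchyme-rich libraries. With the replicate number as a block (replicate block) they numbered 8 (1 higher and 7 lower), the genes with an unadjusted p under 0.05 numbered 516 (4.01%) and the log2 fold change of Itga6 was 0.65. Deviations of libraries with the same title number correlated at -0.49, 0.090 and 0.44, and those with the same column number (2 and 3) at 0.088 and -0.48. Control replicate 1 and CKO replicate 2, the mesenchyme-rich libraries, correlated at 0.56. Such correlations cannot show whether pools were matched by litter or batch, so a pairing of the samples stays unknown. The block changed no call of a member.

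With 15157230 to 18811104 counts a library, the lowest count of a member was 925 (Vcl). The Poisson counting error of a member in a group, per library, was 1.11% to 3.01% of its level, beside an SD between pools of 4.01% to 31.5%. It came nearest to the SD for Fermt2 and Ptk2 in control (2.52% beside 4.53%, and 2.18% beside 4.05%).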
